A study of Mus musculus with 8 samples.

Results

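The proteasome genes described here were the genes of the count tables whose symbol starts with Psm, leaving out the immunoproteasome genes Psmb8, Psmb9 and Psmb10. They numbered 47 of 24421 genes. Of these, 16 encode the core particle (Psma and Psmb), 20 the cap or its chaperones (Psmc and Psmd), 5 activators (Psme) and 4 assembly factors (Psmg), and 2 carry another Psm symbol: Psmf1, which encodes the proteasome inhibitor PI31, and Psmc3ip, which encodes a recombination factor and no proteasome subunit. A total of 45 passed the filter on low counts. The ends of polyadenylated transcripts were sequenced (3' RNA-seq) from cytotoxic, CD8+ T lymphocytes of mice. There were 4 libraries of LKB1-deficient cells and 4 of control cells with wild-type LKB1. Naive cells of both groups had been activated on plate-bound antibodies to CD3 and CD28 for 48 hours. Stk11 is the gene of LKB1, which phosphorylates AMPK and its relatives. The labels state neither how nor in which cells Stk11 was deleted, nor the strain or age of the mice. Nothing says that replicates are different animals, and the p-values below then cover only library to library spread, which may be technical.

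The proteasome degrades proteins that carry ubiquitin chains. Its core particle is a barrel of stacked rings, with alpha subunits (Psma) at the outside and beta subunits (Psmb) inside, where Psmb5, Psmb6 and Psmb7 encode the subunits that cut peptide bonds. The cap (Psmc ATPases and Psmd subunits) sits on the barrel, binds ubiquitylated proteins, unfolds them and feeds them in. In lymphocytes exposed to interferon, Psmb8, Psmb9 and Psmb10 replace the cutting subunits to form the immunoproteasome, which makes peptides for MHC class I.

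Libraries held 3454388 to 6356125 gene counts in the LKB1-deficient group and 7090252 to 12211930 in the control group. Stk11 was at 76.4, 70.7, 107 and 64.3 CPM (counts per 1000000 gene counts, with each library's total adjusted by its TMM factor) in the LKB1-deficient libraries, in the order of their replicate numbers as in all such lists here, against 101, 67.7, 81.8 and 76.9 CPM in the control libraries. The groups overlapped (log2 fold change -0.03 ± 0.18 SE, edgeR adjusted p = 0.911), and 3' tags need not cover a deleted part, so nothing about the genotype follows from them. The 7 CD8 T cell markers summed to 2073 to 3207 CPM in LKB1-deficient and 3760 to 4222 CPM in control libraries. They did not move alike. Cd3d, Cd3g and Cd8a passed as lower in edgeR, with log2 fold changes of -1.12, -0.93 and -0.76. Cd8b1 (-0.48), Lck (-0.32), Cd3e (0.32) and Cd2 (0.24) did not pass. The 7 myeloid markers summed to 4.84 to 10.1 CPM in LKB1-deficient and 5.84 to 7.54 CPM in control libraries, and the 4 CD4 T cell markers to 3.23 to 8.99 CPM in LKB1-deficient and 6.55 to 9.07 CPM in control libraries. The 5 B cell markers, with Pax5 at 0, summed to 4.56 to 7.86 CPM in LKB1-deficient and 7.22 to 12.6 CPM in control libraries. The 4 NK cell markers summed to 83.7 to 154 CPM in LKB1-deficient and 66.2 to 116 CPM in control libraries, nearly all of it Eomes, which activated CD8+ T cells also express. The part of these markers in the results was not tested. All 5 erythroid markers were at 0 in every library. In bulk samples fewer cells of a type and less RNA per cell cannot be told apart. LKB1-deficient replicates 2 and 4 had TMM factors of 0.8896 and 0.8634, against 1.001 to 1.088 in the other 6 libraries. Results are therefore also given without LKB1-deficient replicates 2 and 4.

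The core genes had a lower median than the cap genes, with overlapping ranges (-0.60 to 0.54 over core and -0.34 to 0.58 over cap genes on the log2 scale), and the difference was not tested. The median log2 fold change, LKB1-deficient over control, was -0.32 over 14 tested core genes, 0.01 over 20 cap genes and 0.00 over all 10396 tested genes. It was -0.23 over the 5 activators and -0.34 over the 4 assembly factors. By edgeR's quasi-likelihood test with Benjamini-Hochberg adjustment over all tested genes, 5 members were lower (11.1% of 45, against 10.1% of all tested genes) and 1 was higher (2.22%, against 12.4% of all tested genes). In either direction 13.3% of the members passed, against 22.5% of all tested genes. The lower ones were Psma1, Psmb1, Psme2, Psme2b and Psmg1, and the higher one was Psma3. Of the 45 members, 31 had a log2 fold change below 0 (49.7% of all tested genes did), and 19 had an unadjusted p under 0.05, 11 of them lower and 8 higher (18.4% and 20.8% of all tested genes). None of the 20 cap genes passed in this edgeR fit, while 7 of them had an unadjusted p under 0.05, 6 higher and 1 lower. DESeq2 called 3 cap genes (Psmc1, Psmd7 and Psmd12). The members closest to the threshold of 0.05 were Psma1 (adjusted p = 0.0486) and Psme2b (0.0473) inside it and Psmg4 (0.0643), Psmc1 (0.0662) and Psmd12 (0.0663) outside it. Near the 3' ends of their annotated transcripts 18 members share a stretch of at least 50 bases with another annotated gene. Reads from such stretches may be missing from the gene counts, since alignments to several places were counted apart. Overlaps with another gene occur in 21 members. Without both LKB1-deficient replicates 2 and 4 no member passed in edgeR, while 8 had an unadjusted p under 0.05 and 2.37% of all tested genes passed.

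**Figure D1:**
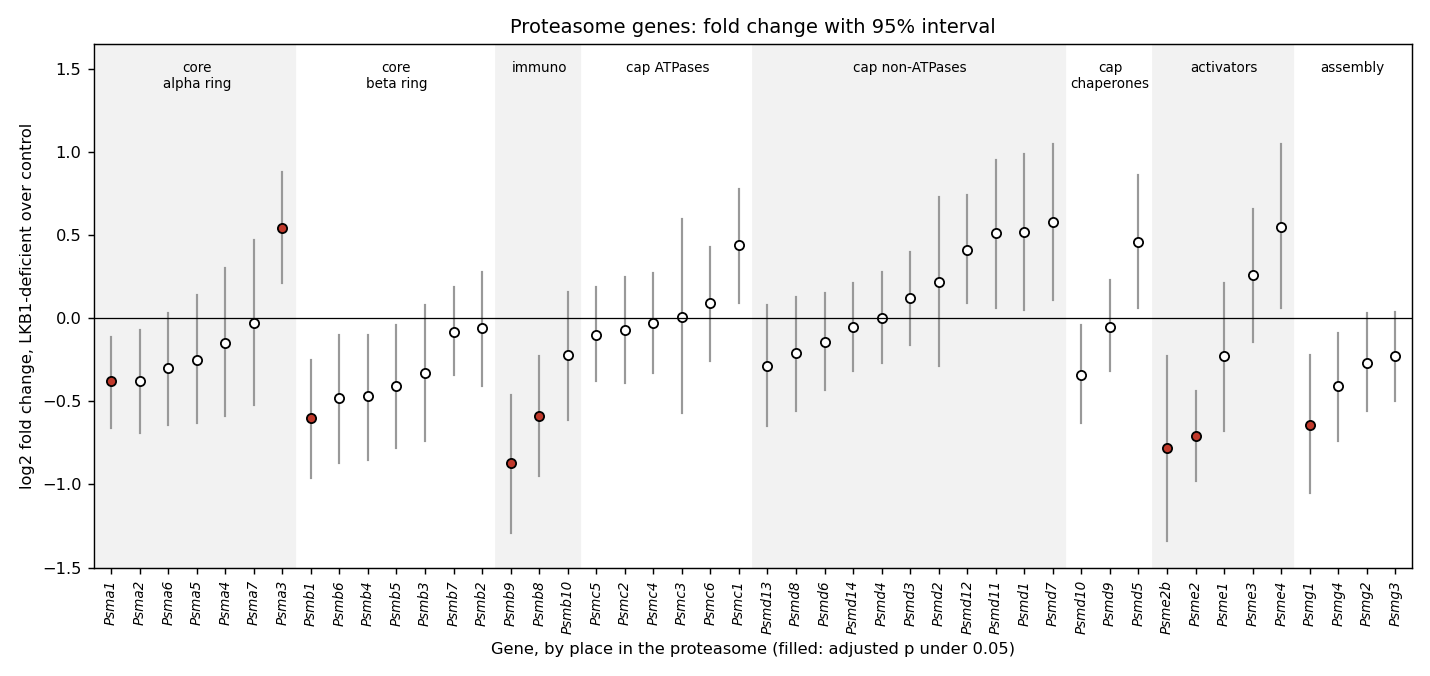
Log2 fold change (LKB1-deficient over control, y axis) of each tested core, cap, activator and assembly gene and of the 3 immunoproteasome genes, with bars for the 95% interval from edgeR. Filled points passed an adjusted p of 0.05. The 7 beta ring genes run from -0.60 to -0.06 and the 20 cap genes from -0.34 to 0.58. With the trend on transcript length removed, not drawn here, Psmb2 lies above 0.

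The summed level put the same values per library. The core genes summed to 5583, 5241, 4976 and 5457 CPM in LKB1-deficient libraries, against 6755, 5772, 6268 and 6799 CPM in control libraries. The groups did not overlap, and the LKB1-deficient mean was 0.831 times the control mean. The cap genes summed to 5670, 6618, 5944 and 7023 CPM in LKB1-deficient libraries, against 5376, 5775, 5473 and 5534 CPM in control libraries. These groups overlapped, since LKB1-deficient replicate 1 lay under control replicate 2, and the mean ratio was 1.14. The mean cap sums were 6314 CPM in LKB1-deficient and 5540 CPM in control libraries. Of these, Psmd1 made up 1054 and 737 CPM and Psmd7 856 and 573 CPM. Of the 20 cap genes, 11 had a log2 fold change above 0 and 9 below. The ratio of the core sum to the cap sum, which no scaling of whole libraries changes and which was chosen after values were seen, was 0.985, 0.792, 0.837 and 0.777 in LKB1-deficient libraries and 1.26, 0.999, 1.15 and 1.23 in control libraries. Every LKB1-deficient value was under every control value, with LKB1-deficient replicate 1 (0.985) and control replicate 2 (0.999) close to each other. No test was run on these sums.

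**Figure D2:**
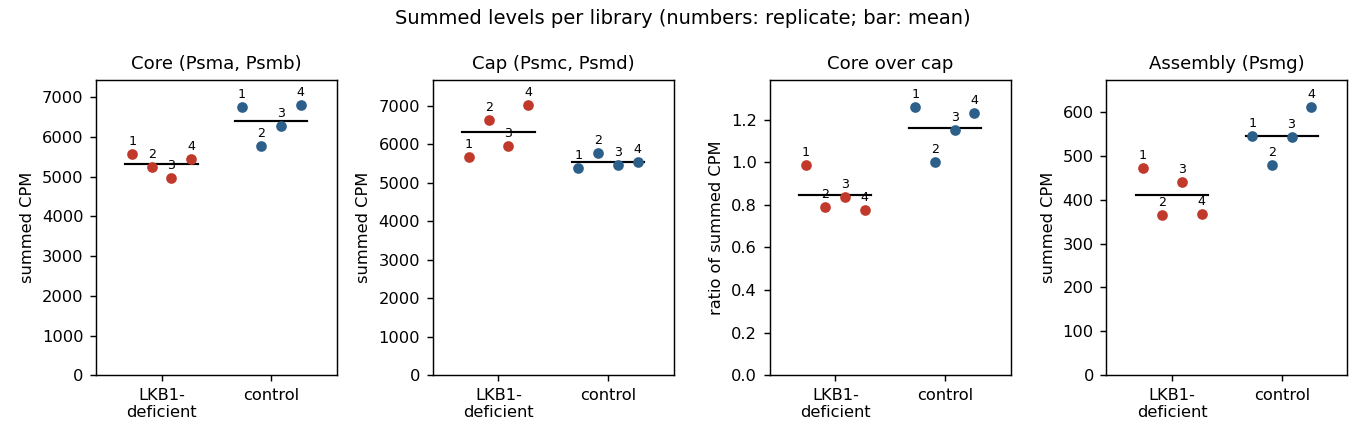
Summed TMM-scaled CPM of core, cap and assembly genes and the ratio of core to cap sums (y axes, each from 0), with 1 point per library labelled by its replicate number and a bar for the mean of 4. Core sums are 4976 to 5583 in LKB1-deficient and 5772 to 6799 CPM in control libraries, and the core to cap ratio separates the groups at 0.985 against 0.999.

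Transcript length moved with these fold changes. Members had a median length of 1819 bases for their longest annotated transcript, against 3336 bases for all tested genes with a length. Core genes had 1220 bases and cap genes 1986 bases. Across the 45 members Spearman's rho between length and log2 fold change was 0.64, and across 10030 tested genes it was 0.38. These points share the same 8 libraries. With each library's trend on length removed, the core median was -0.04 and the cap median 0.17, and with the longest protein-coding transcript of the basic set as the length they were 0.02 and 0.20. The core median stayed under the cap median in each of 21 alternatives, by 0.18 to 0.40 on the log2 scale. With total count scaling, which moved the median of all genes to -0.16, the core median was -0.48 and the cap median -0.17.

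**Figure D3:**
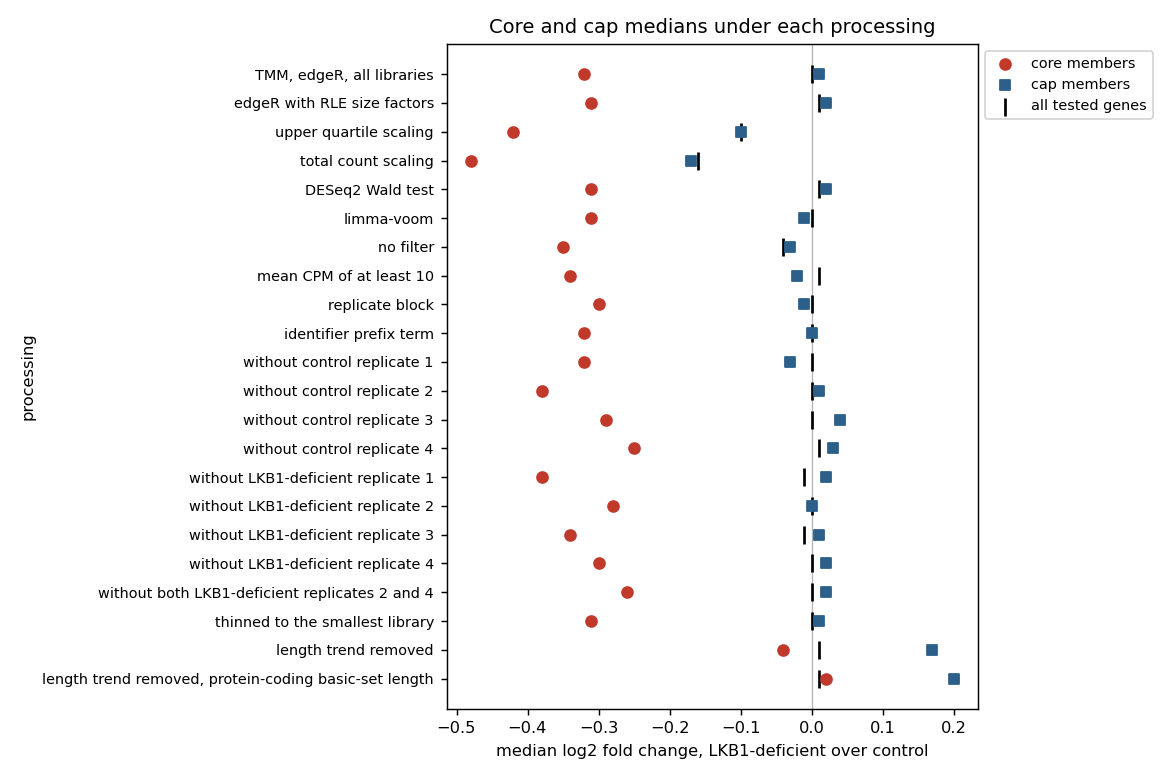
Median log2 fold change (x axis) of core members, cap members and all tested genes under each processing (rows). The core median is -0.32 in the fit with TMM scaling and near 0 (-0.04 and 0.02) where the length trend is removed, and it lies left of the cap median in every row.

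In the alpha ring, which gates the entry to the barrel, 7 of 8 genes were tested. Of these, 1 fell (14.3%, against 10.1% of all tested genes) and 1 rose (14.3%, against 12.4%). Psma1 (chromosome 7, 114264606 to 114276118, minus strand of GRCm38) was at 327, 310, 340 and 305 CPM in LKB1-deficient libraries and at 400, 395, 453 and 422 CPM in control libraries. The LKB1-deficient libraries lay close together under all controls. Psma1 fell with a log2 fold change of -0.38 ± 0.12 (SE, edgeR adjusted p = 0.0486), a call that held in 7 of 21 alternatives and, with 1 library left out, only without LKB1-deficient replicate 3. Its log2 fold change was -0.10 with the length trend removed. Psma3 (chromosome 12, 70974621 to 70996347, plus strand) went the other way, with 34.3, 43.6, 39.1 and 32.3 CPM in LKB1-deficient libraries, against 29.3, 23.8, 28 and 21.3 CPM in control libraries. It rose by 0.54 ± 0.15 on the log2 scale (SE, edgeR adjusted p = 0.0306), and the call held in 12 of 21 alternatives, but ended when any one of LKB1-deficient replicates 2 and 3 and control replicates 2 to 4 was left out. The end of its annotated transcripts shares stretches of at least 50 bases with 3 other annotated genes, and 3110056K07Rik overlaps it on the other strand, so the low level and the direction of Psma3 are uncertain.

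No other alpha gene passed in edgeR with TMM scaling. Psma7 was at 1200, 1367, 879 and 1548 CPM in LKB1-deficient libraries and at 1729, 1152, 1024 and 1183 CPM in control libraries. Its groups overlapped fully, and the log2 fold change of -0.03 had a 95% interval of -0.52 to 0.47. Psma2 gave groups that did not overlap (522 to 634 CPM in LKB1-deficient libraries, against 654 to 804 CPM in control libraries) with an adjusted p of 0.071 in edgeR, and passed as lower with DESeq2 (adjusted p = 0.00877), with upper quartile scaling (0.046) and with total count scaling (0.0435). Psma4, Psma5 and Psma6 had log2 fold changes of -0.15, -0.25 and -0.30, and of 0.16, 0.04 and 0.01 with the length trend removed. Psma8, the alpha subunit of germ cells, was not tested, with 17 counts over all 8 libraries.

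In the beta ring 7 of 8 genes were tested. The 1 that passed in edgeR with TMM scaling (14.3%, against 22.5% of all tested genes in either direction) was Psmb1, a structural subunit. It lies on chromosome 17 (15475021 to 15499751, minus strand) and was at 409, 319, 391 and 360 CPM in LKB1-deficient libraries, against 510, 474, 575 and 685 CPM in control libraries. The highest LKB1-deficient library lay under the lowest control. Psmb1 fell by 0.60 ± 0.16 on the log2 scale (SE, edgeR adjusted p = 0.0261), and leaving out any one of LKB1-deficient replicates 2 and 4 and control replicates 3 and 4 ended the call (adjusted p at most 0.0718). It kept its call with the length trend removed, at a log2 fold change of -0.44. Its transcript end shares a stretch with 1 other annotated gene.

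The genes of the cutting subunits did not pass in edgeR with TMM scaling. Psmb5 was at 86.8, 61.7, 73.1 and 61.4 CPM in LKB1-deficient libraries and at 78.2, 83.6, 99.3 and 115 CPM in control libraries. Psmb6 was at 384, 279, 306 and 272 CPM in LKB1-deficient libraries and at 409, 348, 452 and 525 CPM in control libraries. For both, LKB1-deficient replicate 1 lay within the control range and the other LKB1-deficient libraries under it. Their log2 fold changes were -0.41 ± 0.17 and -0.48 ± 0.17 (SE, edgeR adjusted p = 0.0955 and 0.0676). Psmb6 passed as lower with DESeq2 (adjusted p = 0.0309), with upper quartile and total count scaling (0.0494 and 0.0448) and without LKB1-deficient replicate 1 (0.0359). Psmb7 was at 216, 210, 193 and 199 CPM in LKB1-deficient libraries and at 197, 206, 232 and 230 CPM in control libraries, with overlapping groups and a 95% interval of -0.34 to 0.19. Psmb4, a structural subunit with 475 to 699 CPM in LKB1-deficient and 679 to 940 CPM in control libraries, had a log2 fold change of -0.47 (adjusted p = 0.0672) and passed in the same 4 alternatives as Psmb6 (adjusted p of 0.0233 to 0.0495). Psmb2 and Psmb3, also structural, had -0.06 and -0.33. Psmb2 lay above 0 with either removal of the length trend (0.29 and 0.28) and without LKB1-deficient replicate 2 (0.01) or both replicates 2 and 4 (0.11), and Psmb3 (0.06) and Psmb7 (0.21) with the basic-set length. LKB1-deficient replicate 1 was the highest of its group in 7 of 7 beta genes, and control replicate 4 the highest of its group in 6 of 7. Psmb11, the subunit of the thymus proteasome, had 1 count in all.

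The immunoproteasome genes, which are no members, were set beside the constitutive ones. Psmb8 was at 698, 611, 802 and 580 CPM in LKB1-deficient libraries and at 953, 866, 1092 and 1151 CPM in control libraries. Psmb9 was at 252, 186, 278 and 168 CPM in LKB1-deficient libraries and at 387, 343, 457 and 434 CPM in control libraries. Both fell without overlap of the groups, by 0.59 ± 0.16 and 0.87 ± 0.19 on the log2 scale (SE, edgeR adjusted p = 0.0296 and 0.0131). The call of Psmb9 held in 20 of 21 alternatives and that of Psmb8 in 13, ending without any one of LKB1-deficient replicates 2 and 4 and control replicates 3 and 4 (adjusted p at most 0.0842). Psmb10 was at 149 to 196 CPM in LKB1-deficient and 158 to 262 CPM in control libraries (adjusted p = 0.359). Each immunoproteasome gene was then set against the constitutive gene it replaces, as a log2 ratio of counts within each library. The Psmb6 to Psmb9 ratio was 0.61, 0.58, 0.14 and 0.69 in LKB1-deficient libraries, against 0.08, 0.02, -0.02 and 0.27 in control libraries. LKB1-deficient replicate 3 lay inside the control range. The difference of 0.42 did not pass (two-sided exact permutation p = 0.0571, 0.171 adjusted over 3 ratios). The differences were 0.19 for Psmb5 to Psmb8 and 0.13 for Psmb7 to Psmb10 (exact permutation p = 0.143 and 0.457, n = 4 each), where 4 libraries against 4 can give no p under 0.0286.

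The cap genes stood on both sides of 0. Of the 6 ATPase genes, whose products form the ring that unfolds substrates, 3 were below 0 and 3 above it. Psmc3 had the highest mean of these and was at 276, 637, 273 and 395 CPM in LKB1-deficient libraries, against 336, 447, 426 and 355 CPM in control libraries. LKB1-deficient replicate 2 lay above all other libraries, and the 95% interval of the log2 fold change ran from -0.57 to 0.60. Psmc1 was at 247, 346, 311 and 378 CPM in LKB1-deficient libraries and at 214, 245, 261 and 227 CPM in control libraries (log2 fold change 0.44, adjusted p = 0.0662). Psmc2, Psmc4, Psmc5 and Psmc6 had log2 fold changes of -0.07, -0.03, -0.10 and 0.09.

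Of the 11 other subunits of the cap, 7 were above 0 and 4 below. Psmd1, a scaffold of the cap, was at 718, 1282, 947 and 1269 CPM in LKB1-deficient libraries and at 856, 817, 652 and 623 CPM in control libraries. LKB1-deficient replicates 2 and 4 were the highest and replicate 1 lay inside the control range (log2 fold change 0.52 ± 0.21 SE, edgeR adjusted p = 0.099). Without both LKB1-deficient replicates 2 and 4 it was 0.18. Psmd7, which pairs with the deubiquitinase Psmd14, was at 655, 775, 778 and 1216 CPM in LKB1-deficient libraries and at 654, 642, 454 and 540 CPM in control libraries. The lowest LKB1-deficient value and the highest control value were 655 and 654 CPM (log2 fold change 0.58, adjusted p = 0.0725). The lid subunits Psmd11 and Psmd12 had 0.51 and 0.41 (adjusted p = 0.0896 and 0.0663). Psmd14, the enzyme that removes ubiquitin chains as substrates enter, was at 270 to 288 CPM in LKB1-deficient and 273 to 308 CPM in control libraries, with a 95% interval of -0.32 to 0.21. The ubiquitin receptor Psmd4 was at 341 to 403 CPM in LKB1-deficient and 353 to 388 CPM in control libraries (interval -0.27 to 0.28). Psmd2, Psmd3, Psmd6, Psmd8 and Psmd13 had log2 fold changes of 0.22, 0.12, -0.14, -0.21 and -0.29. Among the chaperones that build the cap base, Psmd5 had 0.46, Psmd9 -0.05 and Psmd10 -0.34, and none passed with all libraries kept. Without LKB1-deficient replicate 1, edgeR called Psmc1, Psmd1 and Psmd7 as higher (adjusted p = 0.0276, 0.0355 and 0.0471) and Psmd10 as lower (0.0301). It called Psmd11 as higher without control replicate 1 (adjusted p = 0.0372) and Psmd12 as higher without LKB1-deficient replicate 3 (0.0379). With the length trend removed, Psmc1, Psmd7 and Psmd12 passed as higher.

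Of the 5 activator genes, 2 fell (40%, against 10.1% of all tested genes) and none rose (against 12.4%) in edgeR with TMM scaling. Psme2 encodes a subunit of PA28, an interferon-induced ring that opens the core. It was at 183, 156, 184 and 156 CPM in LKB1-deficient libraries and at 278, 261, 293 and 279 CPM in control libraries. The groups lay far apart compared with their spread, at 170 ± 15.9 in LKB1-deficient and 278 ± 12.9 CPM in control libraries (SD, n = 4 each). Psme2 fell by 0.71 ± 0.12 on the log2 scale (SE, edgeR adjusted p = 0.00646), the smallest p of the members. The call held in 20 of 21 alternatives, including each library left out, and ended without both LKB1-deficient replicates 2 and 4 (adjusted p = 0.0593). With the length trend removed the log2 fold change was -0.38, still past the threshold. Psme2b, a copy of Psme2, shares stretches of sequence with it, and both share stretches with Gm7928. Reads from such stretches may be missing from the counts of these genes, since alignments to several places were counted apart. Psme2b is therefore uncertain in level. It had 5.34 to 9.31 CPM in LKB1-deficient and 8.82 to 15.7 CPM in control libraries and fell by 0.78 (adjusted p = 0.0473), a call that held in 6 of 20 alternatives and, with 1 library left out, only without LKB1-deficient replicate 3 or control replicate 4. Psme2b also overlaps 2 other annotated genes on its own strand. Psme2 and Psme2b together summed to 162 to 193 CPM in LKB1-deficient and 275 to 304 CPM in control libraries.

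Psme1, whose product is the partner of Psme2 in PA28, did not pass (adjusted p = 0.41). It was at 625, 788, 633 and 899 CPM in LKB1-deficient libraries and at 850, 1168, 729 and 715 CPM in control libraries. The groups overlapped, and the log2 fold change of -0.23 had a 95% interval of -0.68 to 0.21, which overlaps that of Psme2 (-0.98 to -0.44). The difference between the genes was not tested. Psme3, which encodes the nuclear activator PA28 gamma, was at 239, 206, 353 and 210 CPM in LKB1-deficient libraries and at 206, 200, 207 and 228 CPM in control libraries, with LKB1-deficient replicate 3 above the rest (adjusted p = 0.304). Psme4, which encodes PA200, was at 82.9, 109, 88.5 and 111 CPM in LKB1-deficient libraries and at 59, 99.8, 46.5 and 60.7 CPM in control libraries. Control replicate 2 lay among the LKB1-deficient libraries (log2 fold change 0.55, adjusted p = 0.0938). Psme4 passed as higher without control replicate 2 (adjusted p = 0.0172) and with the replicate block (0.046). The inhibitor gene Psmf1 was at 40.6 to 60.3 CPM in LKB1-deficient and 43 to 59.5 CPM in control libraries (adjusted p = 0.755). Psmc3ip was at 45.8 to 60.8 CPM in LKB1-deficient and 51.4 to 59.4 CPM in control libraries, with a 95% interval of -0.28 to 0.27.

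Of the 4 assembly genes, whose products guide the alpha ring together, Psmg1 passed (25%, against 22.5% of all tested genes in either direction). It lies on chromosome 16 (95979933 to 95990960, minus strand) and was at 124, 65.7, 92.7 and 92.8 CPM in LKB1-deficient libraries, against 140, 128, 144 and 172 CPM in control libraries. The groups did not overlap, though LKB1-deficient replicate 1 came near control replicate 2. Psmg1 fell by 0.64 ± 0.19 on the log2 scale (SE, edgeR adjusted p = 0.037). The call ended with the length trend removed (log2 fold change -0.33) and in 6 of the 8 fits that left out 1 library, all but those without LKB1-deficient replicate 1 or control replicate 2. Psmg4 was at 162, 139, 171 and 121 CPM in LKB1-deficient libraries and at 216, 172, 193 and 211 CPM in control libraries. Its groups met at 171 and 172 CPM without overlap (log2 fold change -0.41, adjusted p = 0.0643), and its sign turned, to 0.03, with the length trend removed. Psmg2, the partner of Psmg1, and Psmg3, the partner of Psmg4, had log2 fold changes of -0.27 and -0.23, and that of Psmg3 was 0.12 with the basic-set length. Groups did not overlap in 6 members that were lower and 3 that were higher of 45 tested, against 14.1% and 12.0% of all tested genes.

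**Figure D4:**
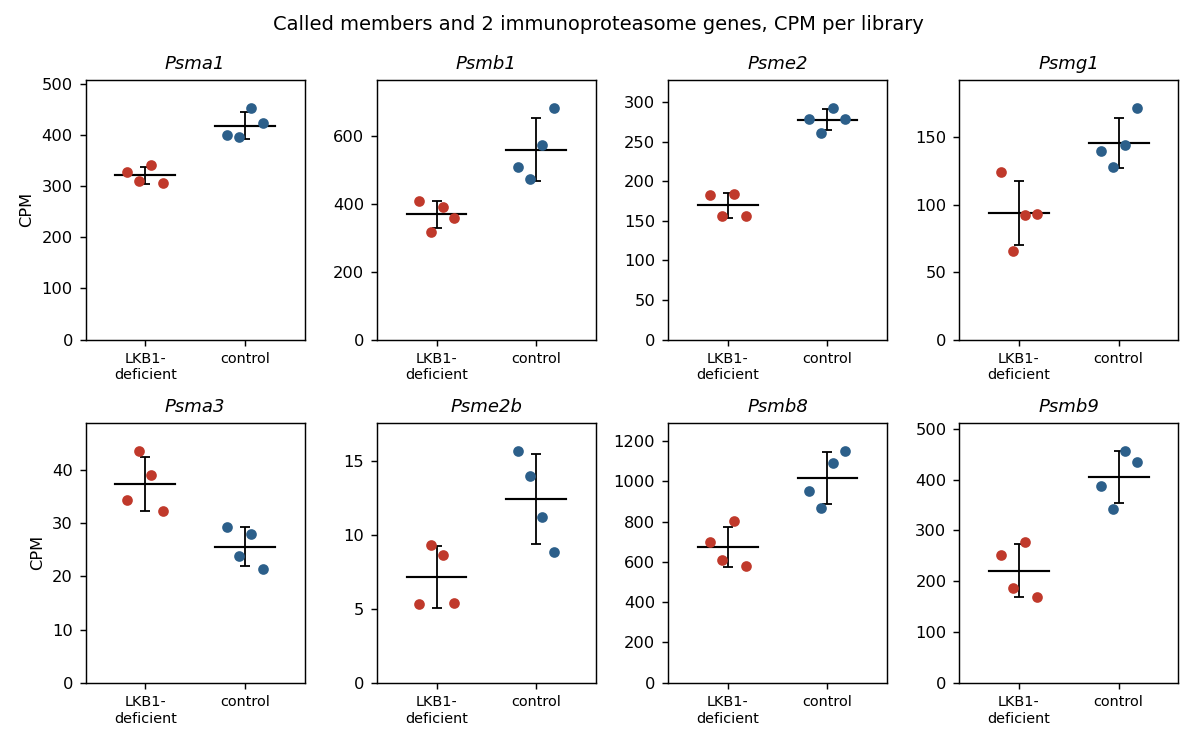
CPM per library (points, y axis from 0) with mean and SD (n = 4 per group) for the 6 called members and for Psmb8 and Psmb9. In all panels but Psme2b the 4 LKB1-deficient points do not overlap the 4 control points, and Psma3 is the only panel in which they are higher.

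Promoter windows from 250 bases before to 50 after the start (RefSeq, GRCm38.p6) were found for 39 of 47 members, 42 windows in all. They were searched on both strands for the antioxidant response element TGACNNNGC, which NRF1 (Nfe2l1) and NRF2 (Nfe2l2) bind, for the interferon-stimulated response element, searched as GAAA repeated after any 2 bases, and for the CCAAT box CCAAT. The first was in 6 member windows (14.3%, against 12.4% of all promoter windows), those of Psmb5, Psmb6, Psmc6, Psmd9, Psmd12 and Psme4, which had log2 fold changes on both sides of 0. The second was in 5 member windows (11.9%, against 3.44%), those of Psmb3, Psmd4, Psmd9, Psme1 and Psmg4. The windows of the immunoproteasome genes Psmb8, Psmb9 and Psmb10 did not hold this second motif. The third was in 14 member windows (33.3%, against 37.4%). The differences in share were not tested. The windows below, written 5′ to 3′ on the gene's strand, show called members and genes with a motif, with capitals for the motifs found. Psma1 (chr7:114276067-114276366, minus strand) and Psma3 (chr12:70974373-70974672, plus strand), which changed in opposite directions, hold CCAAT boxes. Psmb6 (chr11:70525107-70525406, plus strand) and Psmd12 (chr11:107479278-107479577, plus strand), a core and a cap gene, hold an antioxidant response element. Psme1 (chr14:55578244-55578543, plus strand) holds the interferon element, and the window of its called partner Psme2 (chr14:55591052-55591351, minus strand) holds none of the 3 motifs and is all in lower case.
Psma1: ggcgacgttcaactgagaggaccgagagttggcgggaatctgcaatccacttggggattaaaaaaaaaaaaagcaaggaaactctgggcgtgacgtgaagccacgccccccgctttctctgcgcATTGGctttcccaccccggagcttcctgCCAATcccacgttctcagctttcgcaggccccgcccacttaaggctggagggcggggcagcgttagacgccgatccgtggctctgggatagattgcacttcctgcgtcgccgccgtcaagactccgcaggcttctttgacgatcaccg
Psma3: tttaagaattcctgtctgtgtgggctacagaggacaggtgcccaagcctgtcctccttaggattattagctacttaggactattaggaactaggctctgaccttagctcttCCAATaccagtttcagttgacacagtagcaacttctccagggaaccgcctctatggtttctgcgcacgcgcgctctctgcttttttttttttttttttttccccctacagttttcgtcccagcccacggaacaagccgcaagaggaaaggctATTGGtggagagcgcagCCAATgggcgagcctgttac
Psmb6: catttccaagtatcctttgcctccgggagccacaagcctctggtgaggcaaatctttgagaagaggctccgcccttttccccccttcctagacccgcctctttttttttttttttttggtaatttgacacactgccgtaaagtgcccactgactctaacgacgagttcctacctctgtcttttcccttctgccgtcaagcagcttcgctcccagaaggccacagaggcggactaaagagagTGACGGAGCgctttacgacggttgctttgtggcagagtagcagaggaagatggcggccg
Psmd12: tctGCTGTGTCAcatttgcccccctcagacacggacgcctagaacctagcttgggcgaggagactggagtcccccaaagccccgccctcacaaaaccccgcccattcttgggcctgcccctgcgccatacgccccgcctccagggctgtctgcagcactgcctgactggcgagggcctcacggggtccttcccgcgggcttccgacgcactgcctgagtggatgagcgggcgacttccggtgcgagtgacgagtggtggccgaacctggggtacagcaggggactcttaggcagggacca
Psme1: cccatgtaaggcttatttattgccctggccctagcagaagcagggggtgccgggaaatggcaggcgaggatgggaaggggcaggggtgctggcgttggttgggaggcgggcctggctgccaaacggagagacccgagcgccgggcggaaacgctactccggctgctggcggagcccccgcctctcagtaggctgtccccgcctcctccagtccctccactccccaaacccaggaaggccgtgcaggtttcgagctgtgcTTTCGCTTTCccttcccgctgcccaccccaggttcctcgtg
Psme2: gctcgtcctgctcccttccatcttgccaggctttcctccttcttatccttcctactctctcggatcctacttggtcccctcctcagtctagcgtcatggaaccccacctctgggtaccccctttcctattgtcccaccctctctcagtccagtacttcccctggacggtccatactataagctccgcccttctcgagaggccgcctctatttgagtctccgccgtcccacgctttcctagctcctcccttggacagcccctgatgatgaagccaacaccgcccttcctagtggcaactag

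Of 7 tested genes whose products regulate the proteasome genes, 3 rose (42.9%, against 12.4% of all tested genes) and 1 fell (14.3%, against 10.1%). The median log2 fold change of the 7 was 0.62. Nfe2l1 encodes NRF1, the factor that raises proteasome gene transcription when proteasome activity falls short. It was at 106, 136, 101 and 113 CPM in LKB1-deficient libraries and at 83.4, 75.6, 66.7 and 70.5 CPM in control libraries. All LKB1-deficient values lay above all controls, and Nfe2l1 rose by 0.62 ± 0.14 on the log2 scale (SE, edgeR adjusted p = 0.0136). The call held in 20 of 21 alternatives and ended without both LKB1-deficient replicates 2 and 4. Mafg and Mafk encode small MAF proteins, which pair with NRF1 and NRF2 on DNA, and rose by 1.01 and 0.62 (adjusted p = 0.014 and 0.0329), and Mafk lost its call without any one of LKB1-deficient replicates 2 and 4 and control replicates 1, 2 and 3. Ngly1, which encodes the glycanase that processes NRF1, was at 30.1, 24.4, 30.3 and 23.4 CPM in LKB1-deficient libraries and at 41.3, 38.7, 39.1 and 43.3 CPM in control libraries. It fell without overlap by 0.58 ± 0.13 (SE, edgeR adjusted p = 0.0144). Nfe2l2 was at 50.6, 122, 55.6 and 99.3 CPM in LKB1-deficient libraries and at 46.5, 55.6, 45.3 and 44.9 CPM in control libraries, high in LKB1-deficient replicates 2 and 4 (adjusted p = 0.0588). Ddi2, whose product cuts NRF1, was under the filter at 0 to 3.2 CPM in LKB1-deficient and 0.151 to 0.73 CPM in control libraries.

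Of 17 tested partners of the proteasome without a Psm symbol, 4 rose (23.5%, against 12.4% of all tested genes) and 1 fell (5.88%, against 10.1%). Usp14, a deubiquitinase on the cap, was at 138, 170, 128 and 137 CPM in LKB1-deficient libraries and at 97.5, 107, 98.6 and 97.4 CPM in control libraries. It rose by 0.52 ± 0.13 on the log2 scale (SE, edgeR adjusted p = 0.0192) without overlap of the groups, a call that ended without control replicate 3 or 4. AI314180, the older symbol of Ecpas, which encodes the adaptor ECM29, rose by 0.63 on the log2 scale (adjusted p = 0.033), and the shuttle factor genes Ubqln2 and Ubqln4 rose by 0.54 and 0.47 (adjusted p = 0.0294 and 0.0352). AI314180 lost its call without any one of LKB1-deficient replicates 2 and 4 and control replicates 1, 3 and 4, and Ubqln2 without LKB1-deficient replicate 4 or control replicate 1, 2 or 3. Ubqln4 kept its call only without LKB1-deficient replicate 2 or 3 among the 8 fits that left out 1 library. Shfm1, the older symbol of Sem1, encodes a small lid subunit and fell to 567 to 671 CPM in LKB1-deficient libraries, against 854 to 952 CPM in control libraries (adjusted p = 0.0156, and 0.0535 without control replicate 3). Pomp, the maturation factor of the core, was at 324, 286, 327 and 272 CPM in LKB1-deficient libraries and at 352, 327, 411 and 442 CPM in control libraries. These groups met at 327 CPM, and Pomp did not pass (log2 fold change -0.34, adjusted p = 0.11).

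Of 6 genes of ubiquitin and its activating enzymes, 1 rose (16.7%, against 12.4% of all tested genes) and 2 fell (33.3%, against 10.1%). Uba6, an activating enzyme, was at 124, 126, 75.6 and 125 CPM in LKB1-deficient libraries and at 55.5, 52.5, 40.8 and 55.9 CPM in control libraries, a rise of 1.14 ± 0.19 on the log2 scale (SE, edgeR adjusted p = 0.00559). Ubb, a polyubiquitin gene, fell to 8.61 to 11 CPM in LKB1-deficient libraries, against 14.4 to 28.1 CPM in control libraries (adjusted p = 0.00929). Ubiquitin genes are near copies of each other, so their counts are uncertain. Of 10 genes of the p97 segregase, which pulls ubiquitylated proteins out of complexes and membranes, 4 rose (40%, against 12.4% of all tested genes) and none fell (against 10.1% of all tested genes). They were Vcp, p97 itself (1.52-fold, adjusted p = 0.0383), Nploc4 (1.36-fold, 0.0436), Ubxn2a (1.9-fold, 0.0302) and Ubxn4 (1.95-fold, 0.0259). For Vcp, Ubxn2a and Ubxn4 the lowest LKB1-deficient library lay inside the control range. With 1 library left out, the number of fits in which the call held, of 8, was 2 for Vcp, 1 for Nploc4, 3 for Ubxn2a and 4 for Ubxn4, and leaving out LKB1-deficient replicate 2, control replicate 3 or control replicate 4 ended it for all 4. As a comparison, none of the 8 genes of TRiC, the cytosolic chaperonin, passed in edgeR, with a median log2 fold change of -0.02 and 1 unadjusted p under 0.05. Among genes with a length, the median was 4113 bases for p97, 3810 for partner, 3296 for regulator and 2469 for TRiC genes. It was 1220 bases for core genes and 3336 bases for all tested genes. Log2 fold change rose with length across tested genes, and the part of length in these lists was not tested.

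**Figure D5:**
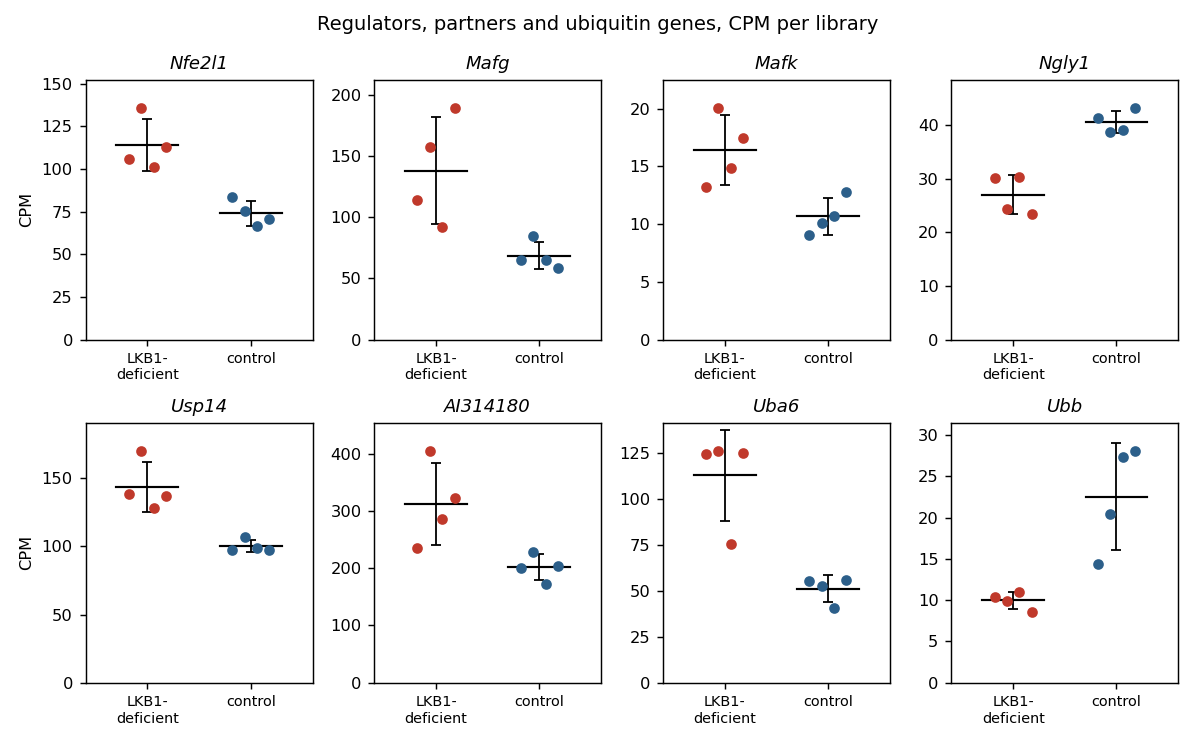
CPM per library (points, y axis from 0) with mean and SD (n = 4 per group) for Nfe2l1, Mafg, Mafk, Ngly1, Usp14, AI314180, Uba6 and Ubb. The LKB1-deficient and control points do not overlap in any of the 8 panels, with LKB1-deficient lower for Ngly1 and Ubb and higher for the other 6.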

How the data were processed

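The 8 libraries, 4 of LKB1-deficient and 4 of control cells, were grouped by the titles in the labels. Per the labels' protocols, first strands were primed by oligo-dT with a sample barcode and pooled before 12 PCR cycles, and the 3' libraries keep the strand. No molecular identifiers are named, so PCR copies may be counted repeatedly. The authors deposited raw counts per gene symbol. Per the submitters' processing notes, STAR and the mm10 build were used. The annotation and counting options were not found in the labels. The 5 lines that name no gene were left out. Unannotated reads made up 14.9% to 17.5% of annotated, ambiguous and unannotated reads together in LKB1-deficient and 12.1% to 14.3% in control libraries, and alignments to several places came to 2.21 to 2.65 and 2.92 to 3.5 per gene count. Their part in the results was not tested.

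Counts of all genes were fitted in R 4.3.3 with edgeR 4.0.16 (filterByExpr with minimum count 10 and total 15, TMM, robust quasi-likelihood test, no covariates), with Benjamini-Hochberg adjustment over 10396 tested genes and a threshold of 0.05. The test was checked on simulated counts. SEs are approximate, the absolute log2 fold change over the square root of F, and 95% intervals use the fit's degrees of freedom. Log2 ratios added 0.5 to each count. Lengths and coordinates come from GENCODE vM21 (GRCm38), and 96.5% of tested genes had a length. Members and gene lists were chosen with earlier results of these data known. Genes chosen for values per library were the called members and the member of each class with the highest mean CPM. Genes named in advance by role and up to 4 called genes per list were also chosen. Some of these are given only as ranges, as fold changes or in a figure. Psmc1, Psmd7 and some ranges were added after values were seen. Paaf1 was not analysed here. The values of 1 called ubiquitin list gene are not reported here. Alternatives were other scalings, DESeq2 1.42.0, limma-voom in limma 3.58.1, no filter or one at a mean of 10 CPM, a replicate block, a term for the identifier prefix, libraries left out, thinning to 3454388 counts, removal of the length trend (lowess span 0.3) and a threshold of 0.01.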

Additional observations from a re-analysis of the deposited data

Results flagged for a closer look

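In 6 of 144 groups of 4 libraries, 1 library lay far from the other 3, and chance gives about 1 in 20 groups. Psmc5 was at 260 CPM in LKB1-deficient replicate 1, against 219 to 221 CPM in the other 3 libraries of that group. Psmd5 was at 145 CPM in LKB1-deficient replicate 4, against 83.3 to 89.6 CPM in the other 3. Shfm1 was at 671 CPM in LKB1-deficient replicate 3, against 567 to 577 CPM in the other 3. Uba6 was at 75.6 CPM in LKB1-deficient replicate 3, against 124 to 126 CPM in the other 3. Nfe2l2 was at 55.6 CPM in control replicate 2, against 44.9 to 46.5 CPM in the other 3. Usp14 was at 107 CPM in control replicate 2, against 97.4 to 98.6 CPM in the other 3.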

How the results depend on the processing

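The 5 lower and 1 higher members became 9 and 4 with DESeq2 (6 called core, 3 cap, 2 assembly genes), 9 and 0 with upper quartile or total count scaling (5 core and 2 assembly genes each), 3 and 1 with RLE factors or the identifier prefix term, 4 and 0 with thinning, 2 and 4 with either removal of the length trend (3 cap and 0 assembly genes), and 1 and 0 at an adjusted p of 0.01 (0 core, 1 activator, 0 assembly genes). One activator instead of 2 passed with RLE factors, limma-voom, the prefix term, a mean CPM filter of 10, thinning and either length removal. The replicate block gave 3 lower and 2 higher members and 1 called immunoproteasome gene in place of 2. Same-numbered libraries shared a number and an identifier prefix, which was ET for replicate 1 of both groups and EU for all others. Correlations of their deviations were -0.25, 0.29, 0.30 and -0.09, against -0.37 to 0.34 between libraries with different numbers. Whether same-numbered libraries form pairs is not known. Both length removals also left 1 immunoproteasome gene, the first gave 8 called partners in place of 5, and the second a member median of 0.12 in place of -0.08. Total count scaling gave a member median of -0.24, 2 partners and 2 of 4 p97 genes, and upper quartile scaling and the prefix term also 2 p97 genes. Log2 ratios of the summed level were -0.27 for core and 0.19 for cap genes, -0.43 and 0.02 with total count and -0.37 and 0.08 with upper quartile scaling. At 0.01 no immunoproteasome, partner, regulator or p97 gene passed (0 each). Without both LKB1-deficient replicates 2 and 4, 0 members and 0 genes of any list passed, with fewer samples, and the cap sum gave 0.07.

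With 1 library left out, 1 to 6 members were lower and 0 to 4 higher: 0 to 4 core, 0 to 4 cap, 1 to 2 activator and 0 to 1 assembly genes. Called list genes came to 1 to 2 immunoproteasome genes, 0 to 7 partners and 0 to 3 p97 genes. The lowest count of lower members, 1, came without LKB1-deficient replicate 2 or 4 and without control replicate 3. Of the 39 members that did not pass, 22 turned sign in at least 1 alternative, 17 of them under a removal of the length trend. Genes with turned signs included Psmc3 (-0.01 with the prefix term and with a mean CPM filter of 10, -0.05 limma-voom, -0.03 no filter, -0.07 replicate block, -0.18 and -0.10 total count and upper quartile scaling, -0.51 without both replicates, -0.31 to 0.15 leaving 1 out), Psma7 (0.00 prefix term, 0.20 and 0.26 length removals, -0.15 to 0.15 leaving 1 out), the immunoproteasome gene Psmb10 (0.06 and 0.05), Psmg4 (0.03 and 0.03), Psmb7 (0.21) and Psme1 (0.06) under the length removals, the last 2 with the basic-set length only, as were Psmb3 (0.06) and Psmg3 (0.12), Psmb2 (0.29 and 0.28 under the length removals, 0.11 without both replicates, 0.01 without LKB1-deficient replicate 2) and Psmf1 (0.10 without both replicates, -0.20 to 0.01 leaving 1 out). The causes were not tested. The ratios of constitutive to immunoproteasome genes kept sign and stayed above the threshold with a pseudocount of 5. For these ratios the exact tests with a replicate block or with a library left out cannot pass in so small a design. Those tests say nothing about the stability of the ratios. The lower depth of the LKB1-deficient libraries limits the precision of low genes.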
